A study of Mus musculus with 4 samples.

Results

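Aminoacyl-tRNA synthetases are the enzymes that attach each amino acid to its transfer RNA. Their transcripts were examined in 4 RNA-seq libraries whose label is mouse skin Treg cells, or regulatory T cells. Genes were chosen by name alone, as the cytosolic enzymes (Aars, Cars, Dars and so on, with Eprs, Farsa, Farsb and Mars1), the mitochondrial enzymes (names ending in 2) and Tarsl2. This gave 38 of 55487 genes, of which 20 encode cytosolic and 17 mitochondrial enzymes. Tarsl2, which encodes a further cytosolic-type threonyl enzyme, was kept apart. The family was singled out with UVB results of these same libraries known, among them a very low level of Cars with UVB. Its differences with UVB are therefore a description and support nothing.

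Per the series' design text, psoriasiform dermatitis was raised in mice by a daily application of 60 mg of Aldara cream to the shaved back. The agent of the cream is imiquimod (5%), which activates TLR7. Irradiated mice received narrow-band ultraviolet B (UVB) on 3 occasions, every other day. Libraries from total RNA of the skin Treg cells comprised 2 labelled non-UVB and 2 labelled UVB, numbered 1 and 2 in each group. Following that text, all libraries, non-UVB and UVB alike, are recorded here with 60 mg of cream and 5% imiquimod. The text does not say separately whether the mice without UVB received the cream in the same way. What UVB minus non-UVB compares is therefore known only as far as these labels go. The sources used here do not give the strain, sex and age of the mice, the sorting of the cells, or whether libraries came from separate or pooled animals. The p-values below are therefore set against a spread between libraries that may be only technical. In RNA from bulk cells, fewer cells of a type and less RNA per cell cannot be told apart.

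Most synthetases recognise 1 amino acid and the matching transfer RNAs, spend ATP to activate the amino acid, and transfer it to the end of the transfer RNA, which then carries it to the ribosome. Cytosolic translation and mitochondrial translation mostly use separate enzymes, both encoded in the nucleus. A group of cytosolic enzymes is held together with scaffold proteins in the multi-synthetase complex. When uncharged transfer RNA accumulates, the kinase GCN2 phosphorylates the initiation factor eIF2, and the transcription factor ATF4 then raises amino acid transporters, biosynthetic enzymes and several of the synthetases.

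About 3.41 and 2.47 gigabases lay behind the values of non-UVB 1 and 2, and 4.20 and 2.38 gigabases behind those of UVB 1 and 2, in reads of 100 bases. Expression is given as TPM, which is scaled to gene length and to the same total in each library. All 10 markers listed for CD4 T cells (Cd4, Cd3d, Cd3e, Cd3g, Trac, Trbc1, Trbc2, Cd28, Cd5 and Lck) were at 1 TPM or more in every library. This count does not by itself tell CD4 T cells from other T cells. Cd4 itself was at 6.02 TPM (non-UVB) and 33.9 TPM (UVB) for number 1, and at 138 and 71.6 TPM for number 2. The 7 Treg markers summed to 1986 and 4743 TPM in the non-UVB pair and 1826 and 3837 TPM in the UVB pair. In non-UVB 1 only 4 of the 7 reached 1 TPM, and Icos alone gave 1221 TPM of that sum. Foxp3, the defining factor of Treg cells, was listed at 0 TPM in non-UVB 1 and stood at 3.49 to 19.4 TPM in the other 3 libraries. For number 1, Ikzf4 was at 0.0320 TPM (non-UVB) and 0.0140 TPM (UVB), and for number 2 it was at 78.3 and 77.2 TPM. Other markers followed the replicate number. The sum of 7 gamma-delta T cell markers was 8958 TPM (non-UVB) and 8420 TPM (UVB) for number 1, and 175 and 302 TPM for number 2. The sum of 8 keratinocyte markers was 212 and 337 TPM for number 1, and 2988 and 3200 TPM for number 2. The 14 macrophage and dendritic cell markers summed to 12782 and 6023 TPM in the non-UVB pair and to 21245 and 13534 TPM in the UVB pair. Of the 14, 10 were higher with UVB within number 1 and 12 within number 2. The haemoglobin share of TPM was 11.7% in non-UVB 1 and 0.153% to 0.441% in the others. The part of these differences in the synthetase values below was not tested beyond the alternatives named beside them.

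Most synthetases were either abundant or nearly absent in a given library. Of the 152 values that 38 genes have in 4 libraries, 27 were listed at 0, 38 lay between 0 and 1 TPM, 10 lay between 1 and 10 TPM, and 77 were at 10 TPM or more. The band between 1 and 10 TPM thus held 6.58% of the values. Among the 26 synthetases that reached 1 TPM in 2 or more libraries it held 7.69%, against 20.9% over all 10286 genes that met the same rule. Values below 1 TPM took 24.0% in these synthetases and 20.3% over all such genes. In all, 24 of the 38 genes, 13 cytosolic and 11 mitochondrial, were below 1 TPM in at least 1 library and at 10 TPM or more in another. Of the 26 the count was 18 (69.2%), against 4359 (42.4%) over the 10286 genes. Genes that every cell needs, such as Yars and Tars, were among those listed at 0 in a library, so a 0 is given here only as a listed value.

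**Figure D1:**
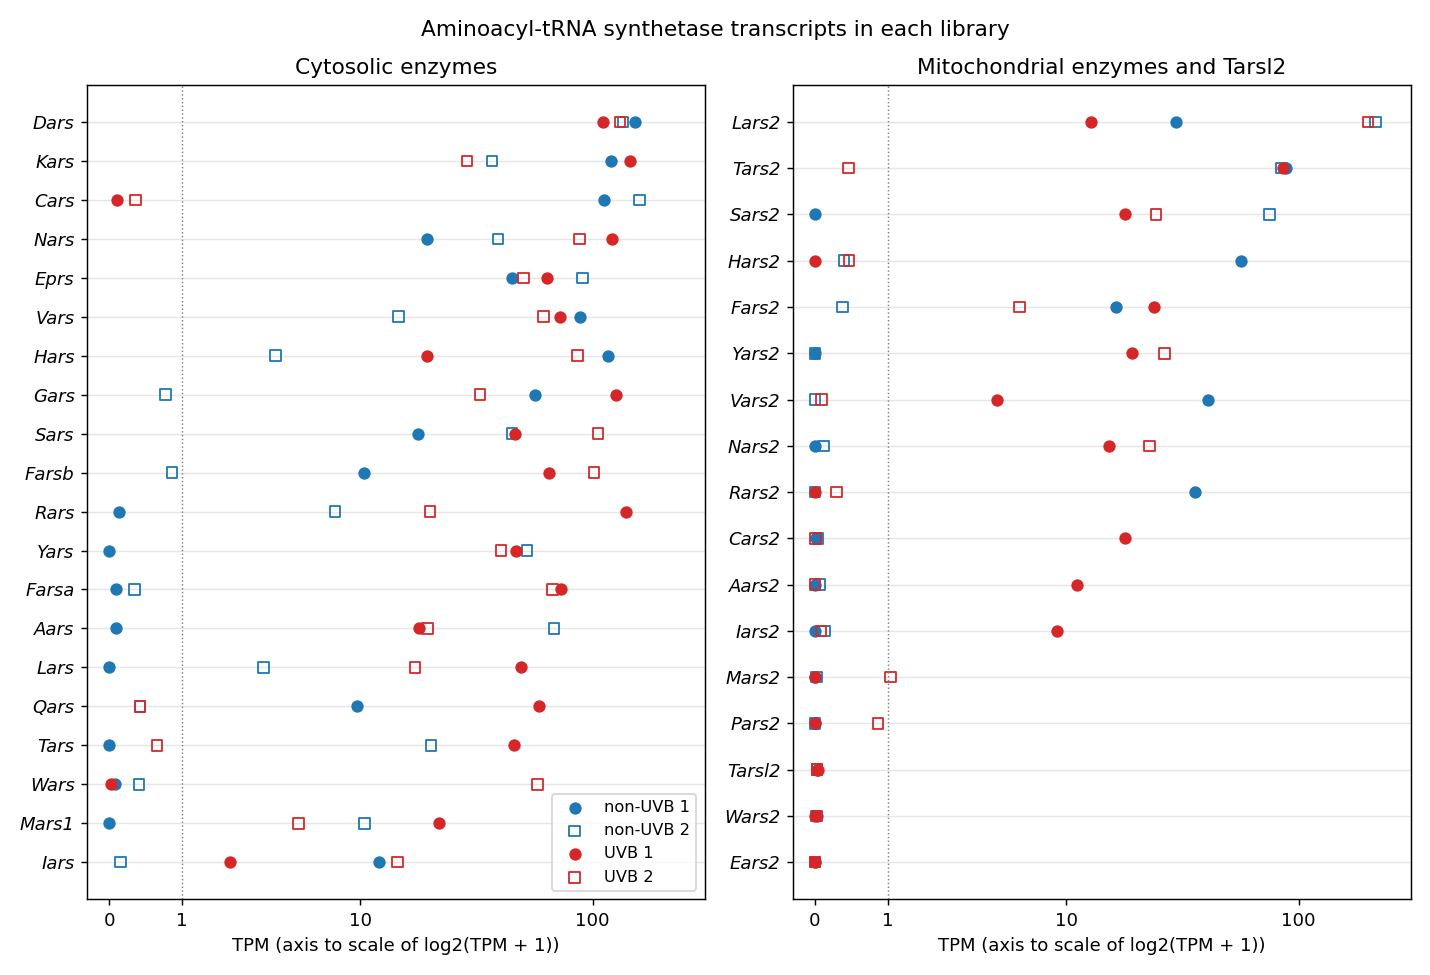
Each row is a synthetase gene and each mark its value in 1 library, in TPM on an axis drawn to the scale of log2(TPM + 1), with circles for libraries numbered 1 and squares for those numbered 2, and with blue for non-UVB and red for UVB. The dotted line marks 1 TPM. Dars keeps all 4 marks between 111 and 150 TPM, whereas most rows have marks on the left below 1 TPM and others at 10 TPM or more; 1 gene is not drawn.

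The low values were low in reads as well. Coverage multiplied by exon length and divided by the read length gave an approximate number of reads behind each value. Values between 0 and 1 TPM had a median of 4.67 such read equivalents and at most 38.7. Values of 10 TPM or more had a median of 2859, with a range of 45.0 to 13974. The lowest of these, 45.0, was Fars2 in non-UVB 1, whose value is treated below. The libraries were made from very little RNA and contain copies from amplification, so read equivalents are not molecules, and many reads can come from few starting transcripts.

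**Figure D2:**
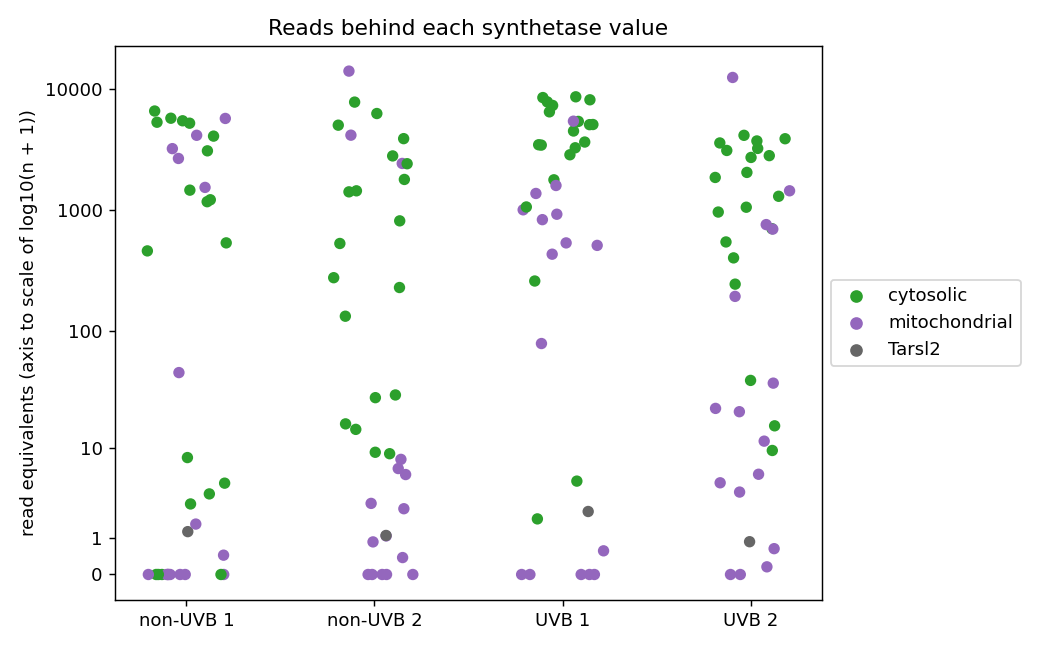
Each point is 1 synthetase in 1 library, the vertical axis gives approximate read equivalents on the scale of log10(n + 1), and points are spread sideways only so that they can be seen (1 gene is not drawn). In each library the values form an upper group and a lower group near 0, with Lars2 highest in both libraries numbered 2 (13974 and 12387).

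Cars, which encodes the cytosolic cysteinyl enzyme (ENSMUSG00000010755, chromosome 7, 143557230 to 143600090, minus strand, GRCm38), was the synthetase with the lowest UVB values relative to non-UVB. It stood at 112 and 157 TPM in the non-UVB pair and at 0.0751 and 0.286 TPM in the UVB pair, means of 135 ± 31.8 and 0.181 ± 0.149 TPM (SD, n = 2). The groups did not overlap, and the lowest non-UVB value was 392 times the highest UVB value. About 5299.9 and 5011 read equivalents lay behind the former and 4.87 and 9.50 behind the latter. The difference was -6.83 ± 1.04 on the log2(TPM + 1) scale (UVB minus non-UVB, ± SE), with an adjusted p of 0.223 by limma. On this scale the change of a low gene is understated. Within replicate numbers 1 and 2 the differences were -6.72 and -6.94. Cars shares 211 exon bases with a pseudogene on the opposite strand, Gm15580, which stood at 0.185 to 0.390 TPM in the 4 libraries. Its mitochondrial counterpart Cars2 was below 0.05 TPM in 3 libraries and at 18.4 TPM in UVB 1. Cars2 shares 422 exon bases with Naxd on the opposite strand. Naxd stood at 0.0656 and 80.9 TPM in the non-UVB pair and at 89.9 and 33.5 TPM in the UVB pair. Whether the values of Cars2 and Naxd share reads was not tested.

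The phenylalanyl enzyme of the cytosol is built from an alpha subunit, encoded by Farsa, and a beta subunit, encoded by Farsb. Both were high in both UVB libraries. Farsa (ENSMUSG00000003808, chromosome 8, 84856989 to 84869257, plus strand) stood at 0.0647 and 0.278 TPM in the non-UVB pair and at 73.4 and 68.0 TPM in the UVB pair, a difference of 5.94 ± 1.07 log2 with an adjusted p of 0.223 by limma. The read equivalents were 2.81 and 9.15 in the non-UVB pair and 3640 and 2046 in the UVB pair. Farsb (ENSMUSG00000026245, chromosome 1, 78417975 to 78488897, minus strand) stood at 10.4 and 0.824 TPM in the non-UVB pair and at 65.3 and 101 TPM in the UVB pair, a difference of 4.17 ± 1.32 log2. Farsb had 461 read equivalents in non-UVB 1, so it was below 1 TPM in 1 non-UVB library and Farsa in both. The mitochondrial enzyme of the same amino acid, Fars2, is a single chain. It was listed at 16.7 and 0.299 TPM in the non-UVB pair and at 24.4 and 6.03 TPM in the UVB pair, and the groups overlapped. These TPM values rested on 45.0 and 0.379 read equivalents in the former and 78.8 and 11.5 in the latter, few for such TPM, which limits what its level can show.

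The 250 bases before the transcription start of 4 synthetases that were low in the non-UVB libraries, Farsb in 1 of them, and high in both UVB libraries are shown here, with that of Sars, whose groups only just separated, for comparison. They are from RefSeq (GRCm38.p6), 5′ to 3′ on the strand of the gene, for Farsa chr8:84856736-84856985 (plus), Farsb chr1:78488898-78489147 (minus), Nars2 chr7:96951277-96951526 (plus), Yars2 chr16:16302715-16302964 (plus) and Sars chr3:108445260-108445509 (minus). Capitals mark a match to 1 of 5 motifs searched on both strands.
Farsa: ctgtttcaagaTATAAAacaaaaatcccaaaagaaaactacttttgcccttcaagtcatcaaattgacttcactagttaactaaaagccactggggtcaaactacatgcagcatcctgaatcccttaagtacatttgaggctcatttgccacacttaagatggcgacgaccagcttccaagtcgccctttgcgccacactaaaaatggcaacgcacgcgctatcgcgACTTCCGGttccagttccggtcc
Farsb: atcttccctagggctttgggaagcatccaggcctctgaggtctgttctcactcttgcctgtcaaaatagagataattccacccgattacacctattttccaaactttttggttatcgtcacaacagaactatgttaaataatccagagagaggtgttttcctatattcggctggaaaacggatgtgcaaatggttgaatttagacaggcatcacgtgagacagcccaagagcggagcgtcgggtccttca
Nars2: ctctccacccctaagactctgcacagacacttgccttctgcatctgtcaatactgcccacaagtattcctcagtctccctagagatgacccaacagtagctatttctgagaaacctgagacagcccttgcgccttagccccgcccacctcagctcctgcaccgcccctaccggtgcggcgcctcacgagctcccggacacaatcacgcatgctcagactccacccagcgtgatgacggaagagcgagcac
Yars2: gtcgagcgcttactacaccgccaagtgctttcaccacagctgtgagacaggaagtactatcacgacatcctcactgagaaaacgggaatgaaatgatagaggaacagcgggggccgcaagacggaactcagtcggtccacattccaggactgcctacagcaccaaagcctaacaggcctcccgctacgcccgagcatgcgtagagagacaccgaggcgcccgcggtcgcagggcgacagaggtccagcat
Sars: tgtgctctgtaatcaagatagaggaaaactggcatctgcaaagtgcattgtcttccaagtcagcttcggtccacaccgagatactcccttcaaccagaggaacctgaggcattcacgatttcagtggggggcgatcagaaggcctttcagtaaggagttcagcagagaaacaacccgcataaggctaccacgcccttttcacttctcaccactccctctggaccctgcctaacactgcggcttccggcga
The motifs were the CCAAT box (CCAAT), the TATA box (TATAAA), an ETS factor site (CCGGAAGT), a composite element read by ATF4 (TGATGNAA) and the consensus palindrome of NRF1. Farsa held a TATAAA beginning 239 bases and an ETS match beginning 23 bases before its start, which do not overlap, and the other 4 windows held none of the 5. Of the 38 synthetases, 28 were found in the promoter table, with 29 windows. Cars, Lars, Nars and Rars, whose groups also did not overlap, were not among them and so are not shown. The ATF4 motif lay in 3 of the 29 windows (10.3%), those of Aars, Gars and Tars, against 3.45% of all 32851 windows. The ETS motif lay in 2 (6.90%, Farsa and Mars1) against 2.88%, CCAAT in 12 (41.4%) against 33.8%, TATAAA in 4 (13.8%) against 12.4%, and the NRF1 motif in 0 against 0.782%. A match describes letters and is not evidence of a bound site.

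Nars2 and Yars2, the mitochondrial asparaginyl and tyrosyl enzymes, were the mitochondrial members whose groups did not overlap. Nars2 (chromosome 7, 96951505 to 97064758, plus strand) was listed at 0 and stood at 0.0872 TPM in the non-UVB pair and was at 15.6 and 23.4 TPM in the UVB pair, from about 1597 and 1443 read equivalents. Yars2 (chromosome 16, 16302965 to 16309640, plus strand) had a listed 0 in both non-UVB libraries and was at 19.6 and 27.1 TPM with UVB, from 835 and 698 read equivalents. Both had an adjusted p of 0.223 by limma, as Cars and Farsa did, the lowest of the 26 synthetases tested. Nars2, Yars2 and Farsa met the rule for testing only through the UVB pair, and Cars only through the non-UVB pair. These p-values therefore support nothing. The cytosolic counterparts of Nars2 and Yars2 differed from each other. Nars stood at 19.9 and 39.9 TPM in the non-UVB pair and at 121 and 88.1 TPM in the UVB pair, a difference of 1.83 ± 0.70 log2. Yars was listed at 0 in non-UVB 1 and was at 53.0 TPM in non-UVB 2 and at 47.7 and 41.2 TPM with UVB, so its groups overlapped. The value of UVB 2 rested on 404 read equivalents, against 2412 in non-UVB 2 and 3434 in UVB 1.

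Over the family, groups that did not overlap and had means at least 1 log2 apart were found for 9 of the 26 tested synthetases. Higher with UVB were 8 (Farsa, Farsb, Lars, Nars, Nars2, Rars, Sars and Yars2), and lower was Cars alone. Over all 10286 genes tested, the same rule took 1859 (18.1%) as higher and 665 (6.47%) as lower, and nothing is read from the members' counts, since the contrast drew attention to the family. The sum of the macrophage and dendritic cell markers was also higher with UVB within each number, and its part in these counts was not tested. No synthetase had an adjusted p under 0.05 by limma (0%, 0 of 10286 over all genes). At an unadjusted p under 0.05 there were 5 synthetases, Farsa, Farsb, Nars2 and Yars2 higher and Cars lower, and 1167 genes in all (11.3%), 1026 of them higher. Farsa, Nars2 and Yars2 met the rule for testing only through the UVB pair and Cars only through the non-UVB pair. Their p-values and their part in the medians below therefore support nothing. Means were higher with UVB for 19 of the 26 and lower for 7, against 6278 higher and 4008 lower over all 10286 genes. The median difference of the 26 was 1.26 log2, against 0.26 for all genes tested. It was 1.25 for the 19 cytosolic and 1.35 for the 7 mitochondrial members tested, and the latter was -0.63 when only genes averaging 10 TPM or more were kept. The median over all genes was -0.27 after each library was scaled to the same median and -0.19 after quantile normalization, and that of the 26 synthetases was then 0.72 and 0.69. The 12 that were not tested were Wars, Tarsl2 and 10 mitochondrial genes. Counting all 38 with no filter, 27 had a higher mean with UVB, 10 a lower one and 1 (Ears2) an equal one.

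The 2 replicate numbers gave different pictures. Within number 1 the median difference of the 26 synthetases was 1.92 log2, and within number 2 it was 0.61, against 0.27 and 0.16 over all genes tested. Of the 26, 10 were higher in both numbers, 4 were lower in both and 12 differed in sign. Over all genes these counts were 3502, 1821 and 4741. The median SE of a synthetase's difference was 1.76 log2, with a range of 0.45 to 2.57, against 1.12 over all genes.

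**Figure D3:**
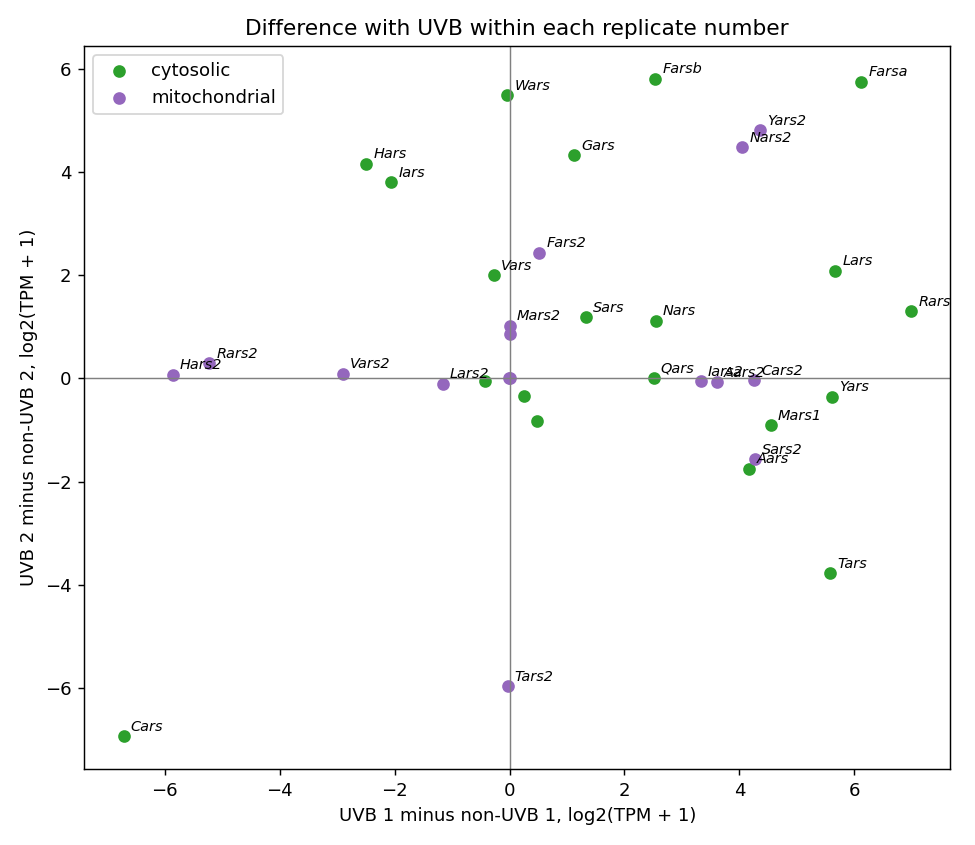
Each point is 1 synthetase, placed by its difference UVB minus non-UVB on the log2(TPM + 1) scale in the libraries numbered 1 (horizontal axis) and numbered 2 (vertical axis), with green for cytosolic and purple for mitochondrial enzymes (1 gene is not drawn). Farsa, Yars2 and Nars2 lie above 4 on both axes and Cars lies below -6 on both, whereas Tars (5.58 and -3.77) and Aars (4.18 and -1.75) differ in sign.

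The multi-synthetase complex contains 8 of the enzymes, and their levels followed no common order across the libraries. Dars (aspartyl), Kars (lysyl) and Eprs (glutamyl and prolyl in a single chain) were above 25 TPM in every library. Dars stood at 150 and 134 TPM in the non-UVB pair and at 111 and 130 TPM in the UVB pair, means of 142 ± 11.1 and 120.3 ± 13.6 TPM (SD, n = 2), a difference of -0.24 ± 0.45 log2. Kars stood at 119.9 and 37.7 TPM against 143 and 29.4 TPM, higher in both libraries numbered 1. Eprs stood at 46.0 and 90.8 TPM against 64.5 and 51.1 TPM. None of these 3 separated by UVB.

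The other 5 complex enzymes each lay below 1 TPM in at least 1 library. Rars (arginyl) stood at 0.0974 and 7.65 TPM in the non-UVB pair and at 138 and 20.4 TPM in the UVB pair, a difference of 4.15 ± 1.76 log2. Lars (leucyl) was listed at 0 and stood at 3.36 TPM in the non-UVB pair and was at 50.0 and 17.5 TPM in the UVB pair. Both separated, with the larger difference in number 1. Iars (isoleucyl) stood at 12.2 and 0.118 TPM in the non-UVB pair and at 2.17 and 14.7 TPM in the UVB pair. Qars (glutaminyl) stood at 9.63 and 0.343 TPM in the non-UVB pair and at 59.4 and 0.343 TPM in the UVB pair, thus low in both libraries numbered 2. Mars1 (methionyl) was listed at 0 and stood at 10.4 TPM in the non-UVB pair and was at 22.4 and 5.10 TPM in the UVB pair. It shares 68 exon bases with Ddit3 on the opposite strand, and the sources do not say whether reads were assigned by strand. The median difference of the 8 was 1.06 log2, with 1.49 in number 1 and -0.02 in number 2. Of their 3 scaffold proteins, Aimp1 was the most abundant, at 67.9 and 104 TPM in the non-UVB pair and 217 and 108 TPM in the UVB pair. The scaffold genes had a median difference of 0.85 log2, 2 higher and 1 lower, and none separated.

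Outside the complex, Sars (seryl) separated by the narrowest margin. It stood at 18.1 and 45.7 TPM in the non-UVB pair and at 47.1 and 105 TPM in the UVB pair, so the lowest UVB value was 1.03 times the highest non-UVB value. Gars, which charges glycine in both cytosol and mitochondria from 1 gene, stood at 57.3 and 0.712 TPM in the non-UVB pair and at 126 and 33.5 TPM in the UVB pair. Hars (histidyl) stood at 116 and 3.89 TPM against 19.7 and 86.6 TPM, with opposite order in the 2 numbers. Vars (valyl) stood at 88.8 and 14.9 TPM against 73.2 and 62.3 TPM. The groups of Gars, Hars and Vars overlapped, and in each the low library was non-UVB 2. Aars (alanyl) stood at 0.0709 and 69.0 TPM against 18.4 and 19.9 TPM, so the UVB libraries lay between the non-UVB ones. Tars (threonyl) was listed at 0 and stood at 20.6 TPM in the non-UVB pair and was at 46.8 and 0.578 TPM in the UVB pair. Wars, the tryptophanyl enzyme, which interferon-gamma is known to induce, was below 1 TPM in 3 libraries and at 58.8 TPM in UVB 2. All 3 were thus below 1 TPM in non-UVB 1, Tars in UVB 2 as well, and Wars in every library but UVB 2. Aars shares 1326 exon bases with Exosc6 on the same strand, and their reads cannot be told apart there. Exosc6 was listed at 0 and stood at 21.1 TPM in the non-UVB pair and was at 11.9 and 0.000166 TPM in the UVB pair.

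Mitochondrial enzymes were often seen in 1 library only. At 1 TPM or more in at least 2 libraries were 7 of the 17, against 19 of 20 cytosolic genes. Lars2, the mitochondrial leucyl enzyme (chromosome 9, 123366927 to 123462666, plus strand), was the most abundant, at 30.3 and 209 TPM in the non-UVB pair and 13.0 and 195 TPM in the UVB pair. It was high in both libraries numbered 2, and its difference with UVB was -0.63 ± 1.77 log2. The mitochondrial ribosomal RNAs were likewise highest in the libraries numbered 2, with mt-Rnr1 at 335 and 284 TPM (non-UVB, UVB) for number 1 and 3317 and 2398 TPM for number 2, and mt-Rnr2 at 1538 and 581 TPM and then 6542 and 7675 TPM. Lars2 has no stretch of 25 bases in common with either RNA in any of its 9 annotated transcripts, and the part of shared reads in its level was not tested further. Tars2 stood at 88.3 and 85.1 TPM in the non-UVB pair and at 86.3 TPM in UVB 1, and was at 0.378 TPM in UVB 2 alone. Its groups just failed to separate, since UVB 1 lay between the non-UVB libraries. Sars2 was listed at 0 and stood at 75.7 TPM in the non-UVB pair and was at 18.3 and 24.9 TPM in the UVB pair. Vars2 stood at 41.6 TPM in non-UVB 1, was listed at 0 in non-UVB 2, and was at 4.71 and 0.0649 TPM with UVB.

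Another 5 mitochondrial genes passed 1 TPM by a wide margin in 1 library and were below 0.5 TPM in the other 3. Hars2 (57.2 TPM) and Rars2 (36.5 TPM) did so in non-UVB 1. Cars2 (18.4 TPM), Aars2 (11.2 TPM) and Iars2 (9.05 TPM) did so in UVB 1. These are the enzymes for histidine, arginine, cysteine, alanine and isoleucine. Hars2 and Hars lie head to head and share 195 exon bases on opposite strands, and both were highest in non-UVB 1. Whether their values share reads was not tested. Iars2 shares 2034 exon bases with Rab3gap2 on the opposite strand. Rab3gap2 stood at 0.0264 and 6.34 TPM in the non-UVB pair and at 14.7 and 4.11 TPM in the UVB pair, so both genes were highest in UVB 1. Whether the values of Iars2 and Rab3gap2 share reads was not tested. Mars2 reached 1.05 TPM in UVB 2 and was at 0.0128 TPM or less elsewhere. Pars2 was listed at 0 in 3 libraries and at 0.822 TPM in UVB 2, Wars2 lay at 0.0196 TPM or less, and Ears2 was listed at 0 in every library. Tarsl2 lay between 0.0181 and 0.0274 TPM. No library had more than 10 of the 17 at 1 TPM or more.

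More synthetases were detected in the UVB libraries. At 1 TPM or more were 18 and 17 of the 38 in the non-UVB pair and 28 and 24 in the UVB pair. In shares these were 47.4% and 44.7% against 73.7% and 63.2%. Of the 13885 genes that reached 1 TPM in any library, 56.4% and 57.9% were at 1 TPM or more in the non-UVB pair and 74.3% and 73.7% in the UVB pair, so the same order held over the whole transcriptome. The 38 include 4 synthetases that never reached 1 TPM, whereas the 13885 leave such genes out. The shares of synthetases and of all genes are therefore not comparable in level. The deepest library, UVB 1, had the most synthetases. UVB 2 had 2.38 gigabases behind its values, close to the 2.47 of non-UVB 2, and more synthetases than either non-UVB library. The part of sequencing depth in these counts was not tested. Cytosolic genes detected numbered 12 and 14 in the non-UVB pair and 18 and 17 in the UVB pair, of 20. For mitochondrial genes the numbers were 6 and 3 against 10 and 7, of 17. Listed at 0 were 13 and 6 of the 38 in the non-UVB pair and 6 and 2 in the UVB pair.

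Summed over the class, the cytosolic enzymes reached 760 and 691 TPM in the non-UVB pair and 1228 and 934 TPM in the UVB pair, and the 2 groups did not overlap. Gars and Kars, which serve both compartments, are counted here as cytosolic by name. The mitochondrial enzymes summed to 270 and 371 TPM in the non-UVB pair and to 220 and 301 TPM in the UVB pair, and the groups overlapped. The ratio of cytosolic to mitochondrial sums was 2.81 and 1.86 in the non-UVB pair and 5.58 and 3.11 in the UVB pair. Lars2 alone made 56.4% and 64.8% of the mitochondrial sum in the libraries numbered 2, against 11.2% and 5.90% in those numbered 1. Without Lars2 the ratios were 3.16 and 4.27 against 5.92 and 8.82. The highest of the non-UVB ratios stayed below the lowest of the UVB ratios in both cases. The median cytosolic gene stood at 11.3 and 12.7 TPM in the non-UVB pair against 54.7 and 37.3 TPM in the UVB pair, and the median mitochondrial gene at 0 and 0.0305 TPM against 9.05 and 0.384 TPM. All 38 together took 0.103% and 0.106% of TPM in the non-UVB pair and 0.145% and 0.124% in the UVB pair.

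For each amino acid with an enzyme in both compartments, the paired genes were set side by side in 17 pairs, with Eprs against both Ears2 and Pars2 and Farsa against Fars2. The cytosolic gene was the higher in 11 and 13 pairs in the non-UVB libraries and in 14 and 16 pairs in the UVB libraries, and in 8 pairs it was higher in all 4 libraries. Some of the 8 rest on values near 0. Wars and Wars2 were both below 1 TPM in every library but UVB 2. Aars was at 0.0709 TPM in non-UVB 1 against a listed 0 for Aars2. Neither gene was at 1 TPM in 4 and 3 pairs in the non-UVB libraries and in 1 and 2 in the UVB libraries. Both genes of a pair were at 1 TPM or more in 2 and 3 pairs in the non-UVB libraries and in 9 and 7 pairs in the UVB libraries. The mitochondrial gene was the higher in 4 and 4 pairs in the non-UVB libraries and in 3 and 1 in the UVB libraries, with Tars2 over Tars and Lars2 over Lars in 3 of the 4 libraries each. In non-UVB 2 these include Fars2 at 0.299 TPM over Farsa at 0.278 TPM, both near 0. TPM is scaled to length, but a level of Fars2 rests on few reads, as given above, and is a weaker basis for such a comparison.

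**Figure D4:**
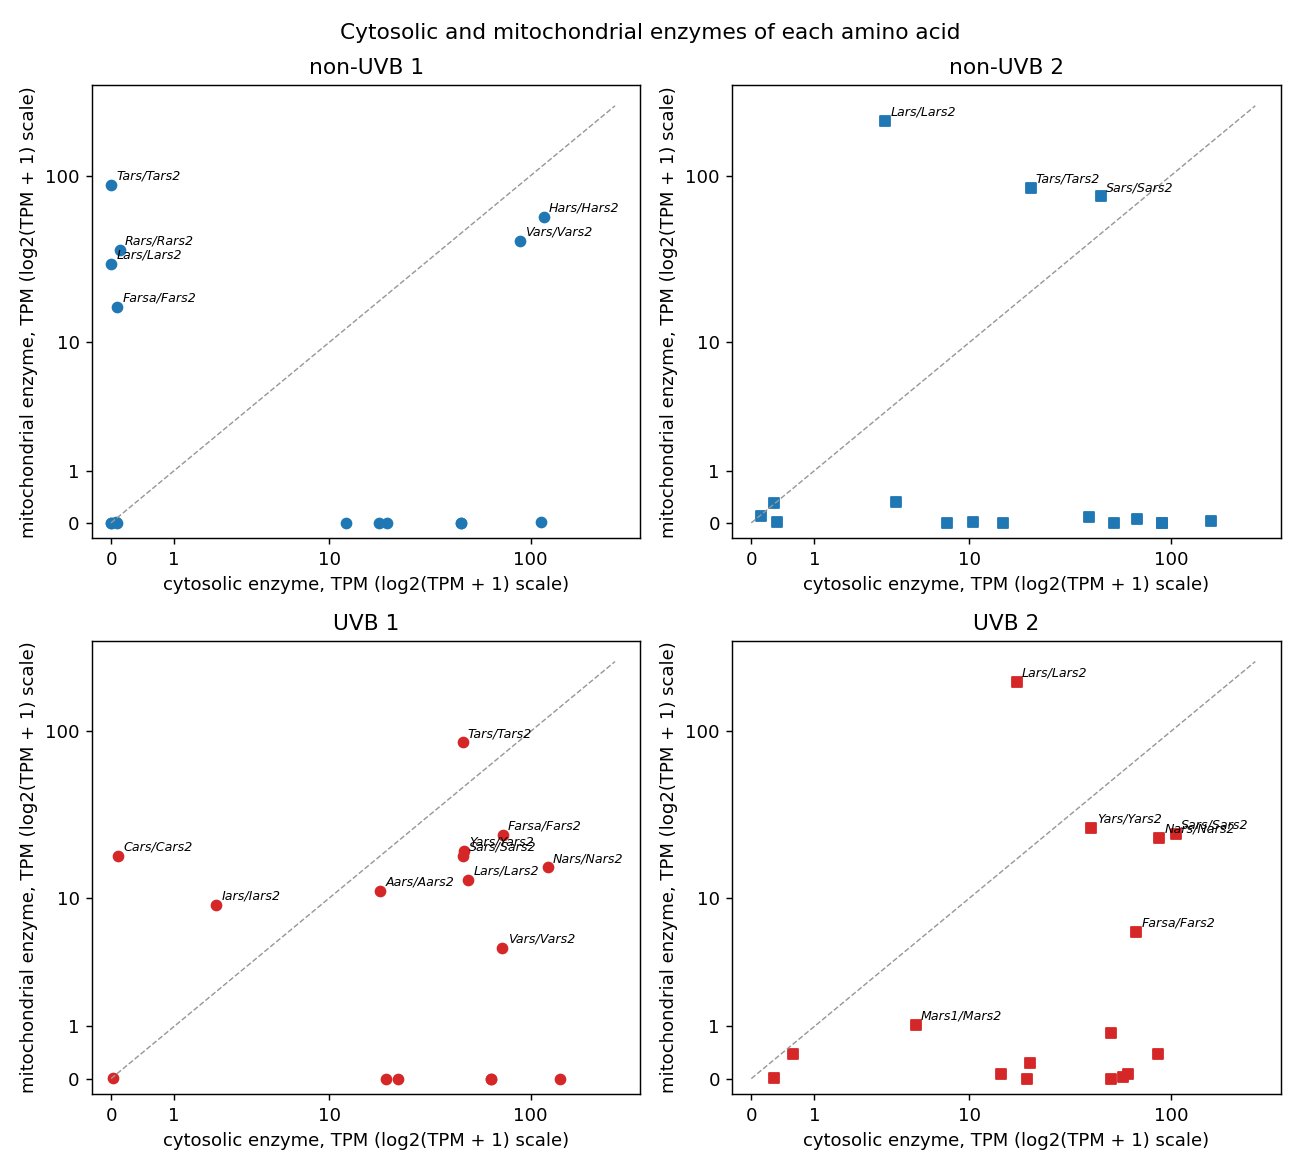
Each panel is 1 library and each point 1 pair of genes for the same amino acid, with the cytosolic gene in TPM on the horizontal axis and the mitochondrial gene on the vertical axis, both to the scale of log2(TPM + 1), and the dashed line marks equal levels (1 pair is not drawn). Most points lie on the horizontal axis or below the line, and pairs with both genes well above 0 are more frequent in the UVB panels than in the non-UVB panels.

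Genes that work with the synthetases were taken from lists set by function. No gene of the 8 lists had an adjusted p under 0.05 by limma. An unadjusted p under 0.05 was reached by 6 of their tested genes, against 1167 (11.3%) of all 10286 genes. Dtd2, Rpp38, Ppp1r15b and Psph met the rule for testing only through the UVB pair. Their p-values and their part in the medians below therefore support nothing. Of 5 genes that remove amino acids or peptides from transfer RNA, all had a higher mean with UVB, as did 6278 of all 10286 genes. Their median was 2.39 log2, against 0.26 over all genes, and 2 were separated and higher (18.1% over all genes). Within numbers 1 and 2, Prorsd1 differed by 6.14 and -0.67 log2, Dtd1 by -4.49 and 5.36, and Aarsd1 by -0.13 and 1.72. These genes thus changed sign between the numbers, whereas Dtd2 and Ptrh2 were higher in both. Nothing is read from the counts of this list. Dtd2, a deacylase that removes wrongly attached D-amino acids and alanine, was listed at 0 and stood at 0.0684 TPM in the non-UVB pair and was at 16.0 and 16.1 TPM in the UVB pair. Ptrh2, a peptidyl-tRNA hydrolase, was listed at 0 and stood at 1.13 TPM in the non-UVB pair and was at 19.1 and 1.90 TPM in the UVB pair. The first was even in both numbers and the second was not.

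Of the 4 genes for the mitochondrial amidotransferase and the methionyl-tRNA formyltransferase, none was at 1 TPM in more than 1 library. Among 25 genes of transfer RNA maturation 14 were tested, 8 higher and 6 lower, with a median of 0.16 log2. Rpp38, a protein of ribonuclease P, was listed at 0 in the non-UVB pair and was at 4.76 and 8.98 TPM in the UVB pair. Pop5, another subunit of the same enzyme, went the other way, at 272 and 258 TPM in the non-UVB pair and 74.3 and 99.5 TPM in the UVB pair, a difference of -1.61 ± 0.45 log2. The 5 cytosolic elongation factors had a median of 0.23 log2, 4 higher and 1 lower. Of these Eef1d, an exchange factor subunit, separated at 61.9 and 46.9 TPM against 91.0 and 160 TPM. Of 6 mitochondrial factors 4 were tested, 2 in each direction, and Mtif3, an initiation factor, separated at 63.3 and 77.5 TPM in the non-UVB pair against 0.00865 and 34.7 TPM. Over all 10286 genes tested, 18.1% were separated and higher, 6.47% were separated and lower, and 6278 had a higher mean. Nothing is read from the counts of these lists.

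A list of the eIF2 kinases, for uncharged transfer RNA and other stresses, with their partners and phosphatase subunits, had 6 of 9 genes tested, 3 higher and 3 lower, with a median of 1.03 log2. The gene of GCN2, Eif2ak4, was not tested, being listed at 0 in both libraries numbered 1 and at 0.0249 TPM in non-UVB 2 and 5.29 TPM in UVB 2. Ppp1r15b, a phosphatase subunit that reverses eIF2 phosphorylation, was listed at 0 and stood at 0.0534 TPM in the non-UVB pair and was at 18.6 and 15.5 TPM in the UVB pair. Impact, an inhibitor of GCN2, stood at 1.08 and 1.07 TPM against 3.36 and 17.6 TPM. Eif2ak1, the kinase that senses haem, stood at 48.3 and 43.4 TPM in the non-UVB pair and at 0.0942 and 5.16 TPM in the UVB pair. Of 25 genes of the amino acid response 19 were tested, 14 with a higher and 5 with a lower mean, and the median was 0.40 log2. Atf4 itself stood at 191 and 233 TPM in the non-UVB pair and at 132 and 170.1 TPM in the UVB pair, a difference of -0.49 ± 0.44 log2. Separated and higher were Shmt2 (0 and 9.25 TPM against 64.7 and 45.4 TPM) and Psph (0 and 0.301 TPM against 22.3 and 49.1 TPM), enzymes of serine and glycine metabolism. Separated and lower were the folate enzyme Mthfd2 (80.6 and 43.3 TPM against 15.2 and 31.5 TPM), the transcription factor Ddit3 (61.1 and 98.6 TPM, against a listed 0 and 52.2 TPM) and the amino acid transporter Slc7a5 (83.5 and 46.0 TPM against 19.4 and 3.87 TPM). Of the 19, 2 were thus separated and higher and 3 separated and lower, and in the eIF2 list 2 and 1. Over all 10286 genes tested these shares were 18.1% and 6.47%, and 6278 had a higher mean. Nothing is read from these counts.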

How the data were processed

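RNA of 4 libraries (2 non-UVB, 2 UVB) was prepared with an ultra-low-input SMARTer kit and sequenced as single-end reads of 100 bases, per the labels' protocols. HISAT2, StringTie and DESeq2 with GRCm38 (mm10) are named in the submitters' processing notes; the sources used here give no versions, annotation or strand setting. The authors deposited 1 table per library with coverage (mean read depth per base), FPKM and TPM, per the file headers. Rows of 1 gene ID were summed. All 38 members had the same coordinates in GENCODE M21, whose merged exon lengths gave read equivalents (coverage times length over 100). Library bases were taken as a quantile near the top of the coverage-to-FPKM ratios, over genes with an FPKM of 1 or more.

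Genes reaching 1 TPM in 2 or more of 4 libraries (10286) were tested with limma 3.58.1 in R 4.3.3 on log2(TPM + 1), with an intensity trend, group as the only term and Benjamini-Hochberg adjustment at 0.05. The script was tested on simulated data. Whole reads were not recovered, so no count test was run, although the design allowed for one. Every member enters the counts, sums and medians, and 1 is not reported here by itself. The naming rule took members with separated groups, members both below 1 TPM and at 10 TPM or more, the 3 most abundant of each class and their counterparts, 34 in all; Eprs, Ears2, Pars2 and Tarsl2 were added outside it. In other lists that had tested genes, the separated genes among those tested, and otherwise the most abundant one, were named. Eif2ak4 and Atf4 were added. Members and lists were chosen with earlier results of these data known. Motifs were searched as exact matches. Alternatives covered the pseudocount (0.1 and 5), filter, unit, scaling, genes behind the TPM total, spread model, replicate block, class membership, detection threshold and leaving out each library.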

Additional observations from a re-analysis of the deposited data

How the results depend on the processing

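The count of genes with an adjusted p under 0.05 by limma was 0 under every setting run, the replicate block included. Replicate numbers are shared only as numbers: deviations from the group means correlated at r = 0.17 over 10286 genes between same-numbered libraries, and no source says that a number marks a shared animal or day. The block left 1110 genes with an unadjusted p under 0.05, against 1167 without it, and no member passed the adjusted threshold.

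The members' median difference (1.26) was 1.92 with a pseudocount of 0.1, 0.75 with 5, 0.72 after median scaling and 0.69 after quantile normalization. The cytosolic median (1.25) was 1.87 with a pseudocount of 0.1, 0.65 after median scaling and 0.69 after quantile normalization. The mitochondrial median (1.35) was -0.63 when only genes averaging 10 TPM or more were kept. Separated members higher with UVB (8) numbered 7 with FPKM, after median scaling and without haemoglobin and mitochondrial genes, where Sars was lost, and 7 with the 10 TPM filter, where Nars2 was lost. Separated lower members (1) numbered 2 with FPKM, after median scaling and without haemoglobin and mitochondrial genes, where Tars2 joined Cars. With 1 library left out in turn, separated members numbered 9 to 13 higher (13 without any 1 library but UVB 1) and 2 to 4 lower (2 without UVB 2, 4 without any other), since fewer libraries must then be apart, and medians lay at 1.32 to 1.61 (all), 1.35 to 2.06 (cytosolic, the highest without UVB 2 and 1.91 without non-UVB 2) and 0.74 to 1.30 (mitochondrial, the lowest without non-UVB 2). The spread of a lone library was then taken from the other group.

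The mean cytosolic to mitochondrial ratio was 4.34 with UVB (7.37 without Lars2, which was chosen after seeing the data, 3.11 to 5.58 with 1 library left out) and 2.34 without UVB (3.72 without Lars2, and 1.86 to 2.81). With Gars and Kars left out, the mean ratio was 3.63 with UVB and 1.96 without UVB. Mean members detected were 26 with UVB (29.5 at 0.1 TPM) and 17.5 without (21.5 at 0.1 TPM and 16.5 at 5 TPM). Of 25 named members tested, the sign differed for 6 without non-UVB 1, 6 without non-UVB 2, 3 without UVB 1 and 3 without UVB 2, and for none under the other settings. With 2 libraries a group, values from a few reads in these low-input libraries limit every statement on low genes.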
